A study of Arabidopsis thaliana with 7 samples.

Results

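The genes described here are those encoded by the mitochondrial genome of Arabidopsis, taken as every identifier that starts with ATMG in the count tables. There were 152 such identifiers among 32833, beside 133 of the chloroplast and 32548 of the nucleus. RNA came from roots of the Col-0 wild type (3 libraries, replicates 1, 3 and 4) and of cepd (4 libraries, replicates 1 to 4), a quadruple mutant in the Col-0 background in which the CC-type glutaredoxin genes ROXY6, ROXY7, ROXY8 and ROXY9 were edited with CRISPR/Cas9. Both genotypes received FN (full nutrition) medium for 7 d, followed by 2 d on LN (low nitrogen) medium, which held 0.1 mM KNO3 and 50 µM NH4NO3. Each library held the roots of 50 seedlings from 5 plates and came from 1 of 4 independent experiments, and the submitters had set aside a Col-0 data set because of leaf material.

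Mitochondria keep a small genome of their own, which in plants encodes ribosomal and transfer RNAs and part of the subunits of the respiratory chain, of the ATP synthase and of the mitochondrial ribosome. The other subunits are encoded in the nucleus and imported, so that each of these complexes is assembled from products of both genomes. Mature plant mitochondrial transcripts mostly carry no poly(A) tail, and a tail marks them for decay, whereas the library kit used here selects RNA through the poly(A) tail.

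The libraries held 30758339 to 46611731 gene counts. The sequence edits in ROXY6 to ROXY9 could not be read from gene counts: ROXY6 had 196 to 226 counts in Col-0 and 104 to 210 in cepd, and the ROXY7, ROXY8 and ROXY9 counts overlapped between the genotypes. Of 17 green tissue marker genes, AT2G34420 was at 0 in every library and 16 were tested. At an edgeR adjusted p below 0.05, 8 were higher in cepd and none was lower, against 9.64% and 8.3% of all genes. With the replicate number as a block 9 were higher (13.9% of all genes). The summed level of the markers was 410.4 to 547 CPM (counts scaled to a common library size) in Col-0 and 706 to 912 CPM in cepd. Of 7 root markers all were tested, and 2 were lower in cepd, EXPA7 (log2 fold change -0.76, edgeR adjusted p 0.00158) and the COBRA-like gene SHV2 (log2 fold change -0.61, adjusted p 0.000636), both active in root hairs. The other 5 (CASP1, SHR, SCR, PLT1 and WOX5) had log2 fold changes of -0.17 to 0.18 and did not pass the test. Within cepd the libraries of replicates 1 and 2 stood apart from those of replicates 3 and 4 in the mitochondrial and chloroplast sums, so results are also given without replicates 1 and 2.

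A large part of the mitochondrial genome is also present in the nucleus, and the part of this in what was counted was not tested. In the RefSeq assembly of Arabidopsis (TAIR10.1), 70.6% of all 50-base windows of the mitochondrial genome also occurred, letter for letter, in a nuclear chromosome, and 67.6% of all 100-base windows did. Nearly all of these lay in 1 stretch of chromosome 2 (chr2:3239038-3509765, 270728 bases), which held 99.8% of the shared windows of that chromosome. Of the 36 RefSeq mitochondrial genes for proteins and ribosomal RNAs, 16 had every 50-base window in the nucleus and 7 had none. The 7 were cox1 (a catalytic subunit of cytochrome c oxidase), atp4 (an ATP synthase subunit), nad4L and nad9 (subunits of NADH dehydrogenase), ccmB (cytochrome c maturation) and the ribosomal RNA genes rrn26 and rrn5. The remaining 13 shared some windows, 9 of them more than 50%.

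The sequence of ATP9, which forms the rotating ring of the ATP synthase in the membrane, shows how complete this sharing is. The 225-base RefSeq coding sequence occurs unbroken on the minus strand of chromosome 2 (TAIR10, chr2:3251856-3252080), inside the exon of the nuclear gene AT2G07671, annotated as an ATP synthase subunit C family protein. The copy is printed here as read from chromosome 2, with capitals marking the first of its 176 windows of 50 bases, each of which is found in both genomes.
ATP9 copy on chromosome 2: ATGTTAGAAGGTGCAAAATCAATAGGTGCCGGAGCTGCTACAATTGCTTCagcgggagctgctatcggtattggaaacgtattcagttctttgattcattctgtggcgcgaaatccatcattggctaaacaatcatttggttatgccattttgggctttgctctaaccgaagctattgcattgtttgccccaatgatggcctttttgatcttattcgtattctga

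A read from inside this sequence matches both places equally well. The mitochondrial identifier of ATP9, ATMG01080, had 0 counts in all 7 libraries, and so had AT2G07671. How reads with several matches were treated is not given in the sources used here.

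The other genes whose identifier could be paired with a RefSeq gene were looked at in the same way. Gene names for the ATMG identifiers came from the study's gene tables and from RefSeq notes on nuclear genes, which gave a name or description to 47 of the 152, and 13 of these could be paired with a RefSeq gene. COX1 (ATMG01360) shared no window with the nucleus and had 623 counts over the 7 libraries. The other 12 shared every window: 11 of them were at 0 in all libraries and NADH dehydrogenase 3 (ATMG00990) had a single count. RefSeq notes name each of these 12, but not COX1, as the best match of a nuclear gene. Their sharing was thus favoured by the way names were found. The 11 were ATP1 (ATMG01190), ATP9, ATP synthase F0 subunit 8, apocytochrome b, cytochrome c oxidase subunit 3, the ribosomal proteins L5, S4, S7 and S12, and a pair of cytochrome c biogenesis proteins. For these genes the tables hold no level to compare between the genotypes, and the part of the nuclear copies in this was not tested.

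**Figure D1:**
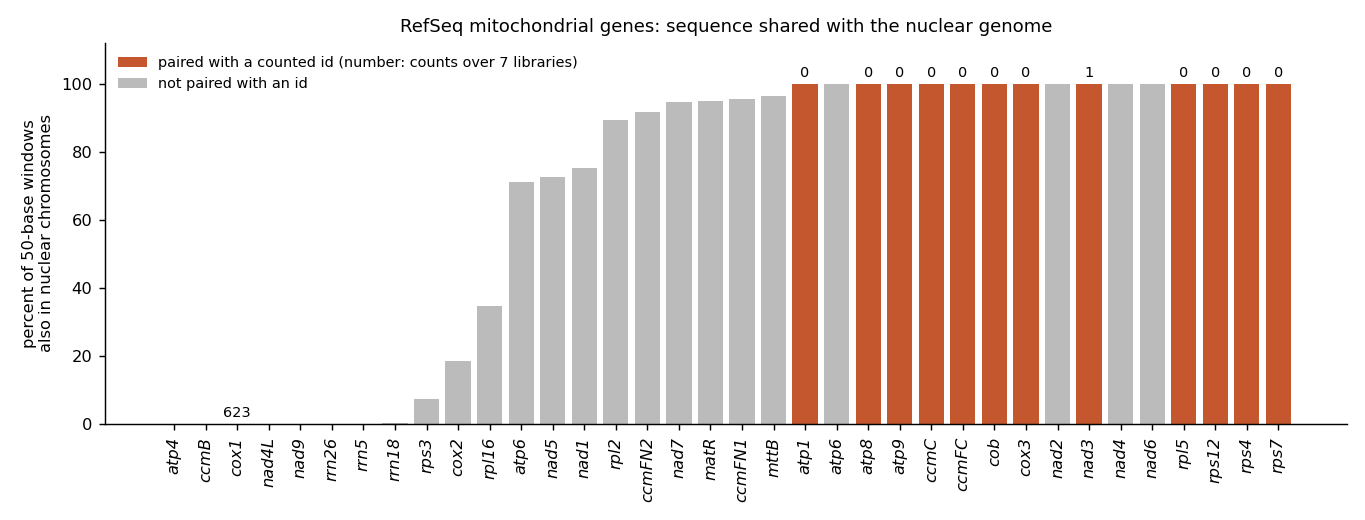
Bars give, for each of the 36 RefSeq mitochondrial genes, the percent of its 50-base windows that also occur in a nuclear chromosome; orange genes are paired with a counted identifier, and the number above them is its count summed over the 7 libraries. Of the paired genes only cox1, at 0%, has a count above 1 (623), and the 12 at 100% have 0 or 1. RefSeq notes name the identifiers of these 12 as best matches of nuclear genes, which favours sharing among them.

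The nuclear side of the shared stretch was almost as empty. Of 125 nuclear identifiers within it, 83 were at 0 in every library, and 2 reached the level needed for a test, AT2G05215 (log2 fold change 0.70 ± 0.36 SE, edgeR adjusted p 0.213) and AT2G07715 (0.16 ± 0.26, adjusted p 0.716). Together the 125 held 624 counts, against 189310 for the mitochondrial identifiers. Their sum was 1.36 to 2.11 CPM in Col-0 and 3.19, 3.63, 2.31 and 2.28 CPM in cepd replicates 1 to 4, without overlap. The ratio of cepd to Col-0 was 2.35, 1.31 and 1.08 in replicates 1, 3 and 4. Of the 79 with at least 99% of their windows shared, 62 were at 0 and none was tested. Among the nuclear matches of the paired genes above, AT2G07698 (ATP1) had 72 counts over all libraries. AT2G07727 (apocytochrome b) had 23 and AT2G07687 (cytochrome c oxidase subunit 3) had 10, and the others were at 0. Over all members, the 45 that RefSeq notes name as the best match of a nuclear gene held 74 counts in all, with 34 of them at 0 and none tested, while of the other 107 members 57 were at 0 and 20 were tested.

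In all, 61 of the 152 members had a count in any library, and 91 had none. The number of members with a count was 33 to 40 per library in Col-0 and 39 to 52 in cepd, and 25 members were counted in all 7 libraries. A test across all genes was made with edgeR on 20600 genes, each of which needed at least 0.264 CPM in 3 or more libraries, and 20 members reached this level. The 132 untested members include 41 with some counts, at most 64 over the 7 libraries. Of the 20 tested, 13 exceeded the minimum in all 3 Col-0 libraries and 7 did so in fewer, so that these 7 entered the test mainly through their cepd libraries.

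Mitochondria-encoded identifiers took a larger share of the counts in every cepd library than in any Col-0 library. The share was 0.0300%, 0.0339% and 0.0379% in Col-0 replicates 1, 3 and 4, and 0.139%, 0.150%, 0.0707% and 0.0529% in cepd replicates 1 to 4. Col-0 had a mean of 0.0339% ± 0.00395 (SD, n = 3) and cepd one of 0.103% ± 0.0486 (SD, n = 4), a ratio of 3.04. The 95% Wilson intervals reached 0.864 to 1.84% of each value to either side and cover counting error only, so the spread within cepd was far larger than counting error. In CPM the cepd library exceeded the Col-0 library of the same number by 4.55-fold in replicate 1, by 2.05-fold in replicate 3 and by 1.37-fold in replicate 4. The mean of cepd replicates 1 and 2 was 4.15-fold that of Col-0, and the mean of replicates 3 and 4 was 1.79-fold. As the RNA came from whole roots, more mitochondrial RNA in each cell and a different mix of cells cannot be told apart. The part of the poly(A) selection of the library kit in this difference was not tested. No p is given for the share, because the members were chosen with results of these data known.

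Chloroplast and nuclear ribosomal RNA identifiers moved with the mitochondrial ones in the same libraries. The chloroplast identifiers summed to 12.3 to 13.9 CPM in Col-0 and to 63.9, 60.5, 29.1 and 24.0 CPM in cepd replicates 1 to 4. Of the 4 nuclear ribosomal RNA identifiers 3 were tested, and all 3 were called higher in cepd (1.93% of all genes). With the replicate block 2 were called (1.85%), and 1 with cepd replicates 3 and 4 only (1.19%). The 4 together summed to 139 to 182 CPM in Col-0 and to 718, 730.3, 452 and 319 CPM in cepd. Nearly all of this came from AT3G41768, the 18S ribosomal RNA gene on chromosome 3, at 158 CPM in Col-0 against 551 CPM in cepd (log2 fold change 1.81 ± 0.29 SE, edgeR adjusted p 0.00349, 0.119 with the replicate block and 0.00548 with cepd replicates 3 and 4 only). Nuclear small nucleolar RNA genes, in contrast, summed to 80.1 to 95.6 CPM in Col-0 and 81.7 to 104 CPM in cepd. The green tissue markers given above were higher in all cepd libraries, by 1.67-fold, 1.75-fold and 1.72-fold in replicates 1, 3 and 4 against Col-0. The mean of cepd replicates 1 and 2 over that of 3 and 4 was 1.18 for these markers and 2.32 for the mitochondrial sum. Most of the markers are genes of photosynthesis, a term the paper reports as enriched among genes higher in cepd roots. The part of ribosomal RNA content and of green tissue in the mitochondrial result was not tested.

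**Figure D2:**
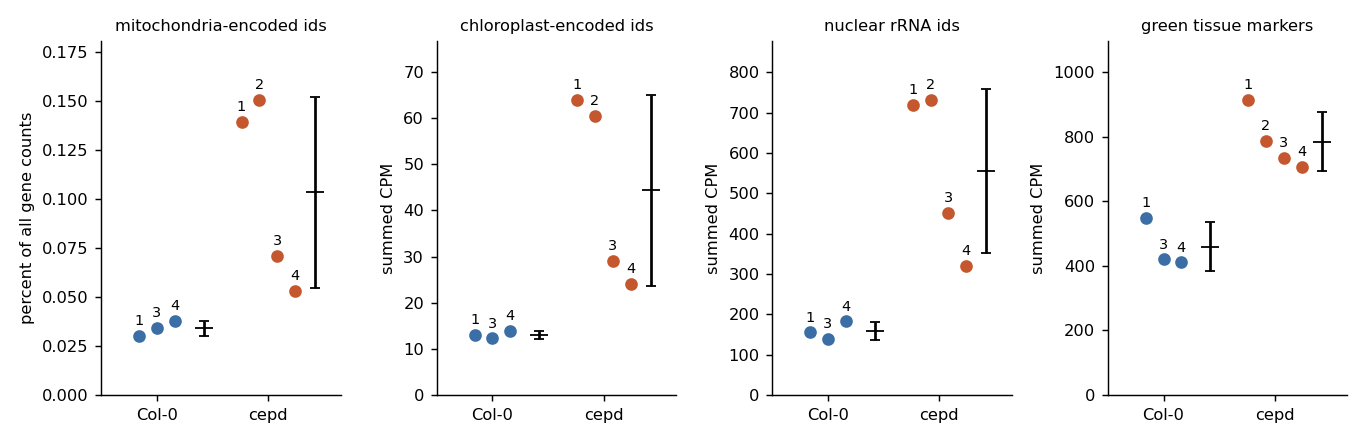
Each point is 1 library, numbered by replicate: the percent of all gene counts in mitochondria-encoded identifiers, and the summed CPM of chloroplast-encoded identifiers, nuclear ribosomal RNA identifiers and green tissue markers; black bars are mean ± SD (Col-0 n = 3, cepd n = 4). In the first 3 panels cepd replicates 1 and 2 lie well above replicates 3 and 4, which lie above all Col-0 libraries; in the last the cepd libraries lie between 706 and 912 CPM.

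A pair of identifiers accounted for most of the mitochondrial counts. ATMG00020 made up 53.1 to 58.0% of them and ATMG01390 35.3 to 40.7%, together 92.4 to 93.1% in Col-0 and 93.4 to 93.9% in cepd, without overlap. ATMG00030 followed with 3.65 to 4.81%. None of these identifiers is paired with a gene name in the sources used here. ATMG00020 and ATMG01390 are, however, on the list of mitochondrial ribosomal RNA identifiers drawn up for this report. Most of the mitochondrial counts may therefore be ribosomal RNA. The percentages are shares of reads, which grow with the length of a gene, so they do not rank the transcripts. The other 149 members together held 282 to 439 counts in Col-0 and 490 to 1095 in cepd, or 7.52 to 11.6 CPM and 12.8 to 29.4 CPM. The sum of these 149 was 2.21-fold higher in cepd, against 2.99-fold for ATMG00020 and 3.01-fold for ATMG01390. In Col-0 ATMG00020 took 54.3% ± 1.19 (SD, n = 3) of the mitochondrial counts, and in cepd it took 54.4% ± 2.44 (SD, n = 4).

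In the test of cepd against Col-0, 8 of the 20 tested members were called higher in cepd, at an adjusted p below 0.05 and a log2 fold change above 1. The background is 1.93% of all genes tested called higher and 2.45% called lower. None of the 20 was called lower by edgeR, DESeq2 or limma-voom, and none was lower at an unadjusted p below 0.05, while 15 were higher at that level (16.4% of all genes). The log2 fold change was above 0 for 19 of the 20, with a median of 1.36 against 0.01 over all genes tested. In 11 of them every cepd library was above every Col-0 library, which was the case for 15.3% of all genes, and the 8 called members were among these. Since 7 of the 20 entered through their cepd libraries, these counts describe the tested members only. All 8 called members exceeded the minimum in all 3 Col-0 libraries.

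The count of calls rested on the libraries and the tool used. DESeq2 called 12 members (1.53% of all genes) and limma-voom 5 (1.91%). With the replicate number as a block, 5 members were called (1.85% of all genes): COX1, ATMG00070, ATMG00080, ATMG00090 and ATMG01380, of which the first 4 were among the 8. ATMG00020, ATMG01390, ATMG00030 and ATMG00060 lost their call; this fit draws nothing from cepd replicate 2, which has no Col-0 partner. With cepd replicates 3 and 4 alone against the 3 Col-0 libraries 0 members were called by edgeR (1.19% of all genes), and 9 of the 18 that could be tested were higher at an unadjusted p below 0.05 (11.2% of all genes). All 8 kept a log2 fold change above 0, between 0.66 and 0.95, and COX1, ATMG00020 and ATMG01390 had an adjusted p of 0.0379, 0.0205 and 0.00737. Of the 8, 3, 2 and 4 were called without Col-0 replicate 1, 3 or 4, and 3 were called without cepd replicate 1 and 3 without cepd replicate 2.

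COX1 (ATMG01360) encodes subunit 1 of cytochrome c oxidase, which hands electrons to oxygen at the end of the respiratory chain. It had 33, 39 and 47 counts in Col-0 replicates 1, 3 and 4 and 162, 167, 99 and 76 counts in cepd replicates 1 to 4. On the scale of CPM these were 0.880, 1.06 and 1.24 in Col-0 and 4.34, 5.32, 2.11 and 1.99 in cepd, so the lowest cepd library was above the highest Col-0 library. The log2 fold change was 1.68 ± 0.38 (SE) with an edgeR adjusted p of 0.0161. It was the only tested member paired with a RefSeq gene, of 1584 coding bases, which put its level at 0.555 to 0.783 CPM per kb in Col-0 and 1.26 to 3.36 CPM per kb in cepd. None of its 50-base windows occurs in the nuclear chromosomes of the reference.

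ATMG00020 had the most counts of all members. It had 162, 186 and 214 CPM in Col-0 against 800.2, 781, 373 and 281 CPM in cepd (6058 to 8104 and 10735 to 29842 counts). The groups did not overlap, and cepd replicates 1 and 2 stood far above replicates 3 and 4. The log2 fold change was 1.58 ± 0.38 (SE), adjusted p 0.0260 by edgeR and 0.271 with the replicate block. The ratio of cepd to Col-0 was 4.95 in replicate 1, 2.01 in replicate 3 and 1.32 in replicate 4.

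ATMG01390 followed the same order. It had 120, 134 and 141 CPM in Col-0 against 487, 599, 286 and 215 CPM in cepd, without overlap. Its log2 fold change was 1.59 ± 0.34 (SE), adjusted p 0.0150 by edgeR and 0.171 with the replicate block. ATMG00030 had 14.6, 13.8 and 17.7 CPM in Col-0 against 62.0, 62.1, 29.4 and 19.3 CPM in cepd, with a log2 fold change of 1.49 ± 0.41 (SE) and an adjusted p of 0.0432 (0.290 with the replicate block). In replicate 4 its cepd and Col-0 libraries differed by only 1.09-fold.

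The remaining 4 called members were of low abundance, with 12 to 34 counts in each Col-0 library. ATMG00070 had the smallest adjusted p of all members: 0.587, 0.570 and 0.501 CPM in Col-0 against 1.85, 1.78, 1.11 and 0.969 CPM in cepd (log2 fold change 1.35 ± 0.28 SE, edgeR adjusted p 0.0105). Its ratio was 3.15, 1.95 and 1.93 in replicates 1, 3 and 4, and it kept its call in each leave-one-out fit. ATMG00060 had the highest log2 fold change, 1.98 ± 0.58 (SE), and the weakest adjusted p of the 8, 0.0460 (0.0580 with the replicate block). It had 13, 12 and 19 counts in Col-0 and 102, 69, 39 and 22 counts in cepd, and its ratio was 7.89 in replicate 1 but 1.15 in replicate 4.

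ATMG00080 and ATMG00090 differed in the same direction. ATMG00080 had 0.400, 0.326 and 0.317 CPM in Col-0 against 1.29, 1.31, 0.576 and 0.629 CPM in cepd (log2 fold change 1.42 ± 0.38 SE, edgeR adjusted p 0.0293). ATMG00090 had 0.720, 0.733 and 0.897 CPM in Col-0 against 3.62, 2.90, 1.45 and 1.10 CPM in cepd (log2 fold change 1.51 ± 0.42 SE, adjusted p 0.0356). In all 8 called members the 2 highest libraries were cepd replicates 1 and 2. These identifiers, too, have no name in the sources used here, and as the kit does not keep the strand of the RNA, reads of overlapping reading frames cannot be told apart.

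**Figure D3:**
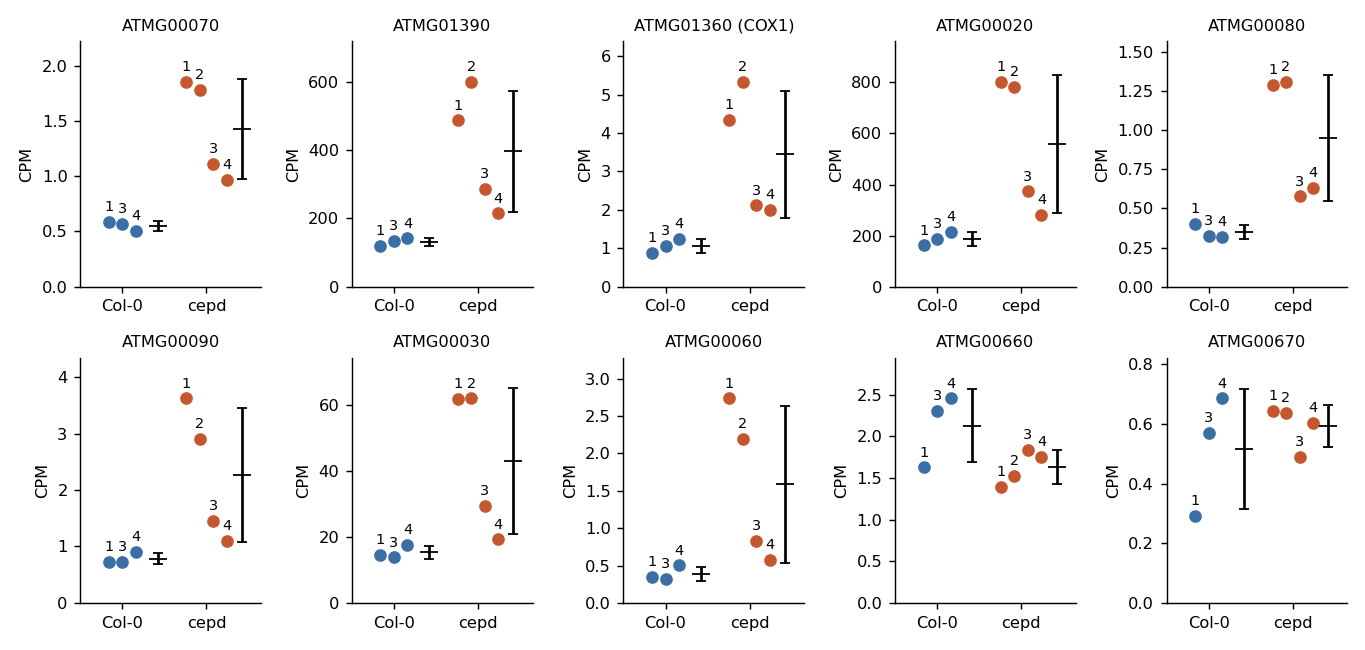
CPM in each library, numbered by replicate, of the 8 called members in order of adjusted p and of ATMG00660 and ATMG00670, with mean ± SD (Col-0 n = 3, cepd n = 4); each panel has its own axis from 0. In the 8 called members no cepd library reaches down to a Col-0 library and replicates 1 and 2 are the highest, whereas the cepd libraries of ATMG00660 lie between 1.39 and 1.84 CPM and those of Col-0 between 1.63 and 2.45 CPM.

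The other 12 tested members did not pass both thresholds. In 3 of them the groups did not overlap. ATP6-2 (ATMG01170), a subunit of the proton channel of the ATP synthase, had 1, 9 and 10 counts in Col-0 and 29, 19, 17 and 11 counts in cepd (log2 fold change 1.47 ± 0.56 SE, edgeR adjusted p 0.101). RefSeq holds a pair of atp6 genes, with 71.1% and 100% of their windows in the nucleus, and ATMG01170 was not paired with either. The other identifier, ATP6-1 (ATMG00410), is noted as the best match of AT2G07741. That nuclear gene has 1158 bases, as has the fully shared atp6 gene. ATMG00160 had a log2 fold change of 1.18 ± 0.36 (SE) and an adjusted p of 0.0513, and ATMG01380 one of 1.18 ± 0.40 with 0.0692 (1.34 ± 0.34 with 0.0161 under the replicate block).

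In the remaining members the groups overlapped. ATMG00640 had 0.533, 0.842 and 0.844 CPM in Col-0 against 2.60, 2.71, 1.13 and 0.786 CPM in cepd (log2 fold change 1.26 ± 0.45 SE, edgeR adjusted p 0.0873). Its cepd library of replicate 4 was below the Col-0 library of that number, with a ratio of 0.931. ATMG00650 had 0.217 to 0.293 CPM in Col-0 against 1.10, 1.21, 0.299 and 0.288 CPM in cepd, so that its difference came from cepd replicates 1 and 2. Over all 20 tested members the ratio of cepd to Col-0 was above 1 in 19 for replicate 1, in 17 for replicate 3 and in 12 for replicate 4, with medians of 4.50, 1.82 and 1.12; 7 of the 20 entered the test mainly through their cepd libraries. Over the 13 that exceeded the minimum in all Col-0 libraries it was above 1 in 12, 11 and 10, with medians of 4.75, 1.95 and 1.23.

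ATMG00660 and ATMG00670 did not follow the rest. They are singled out after their values were seen, as the tested members with the lowest log2 fold changes. ATMG00660 had 61, 85 and 93 counts in Col-0 and 52, 48, 86 and 67 counts in cepd, with a log2 fold change of -0.38 ± 0.18 (SE) and an edgeR adjusted p of 0.187. Its cepd library was below its Col-0 library in each numbered pair, with ratios of 0.857, 0.796 and 0.715, but the groups overlapped and the difference did not pass the test; without Col-0 replicate 1 alone its log2 fold change was -0.54 with an adjusted p of 0.0431. ATMG00670 had 0.293, 0.570 and 0.686 CPM in Col-0 against 0.644, 0.637, 0.491 and 0.603 CPM in cepd (log2 fold change 0.19 ± 0.29 SE, adjusted p 0.698). The next lowest, ATMG01370, had a log2 fold change of 0.65 ± 0.37 (SE) and an adjusted p of 0.260.

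**Figure D4:**
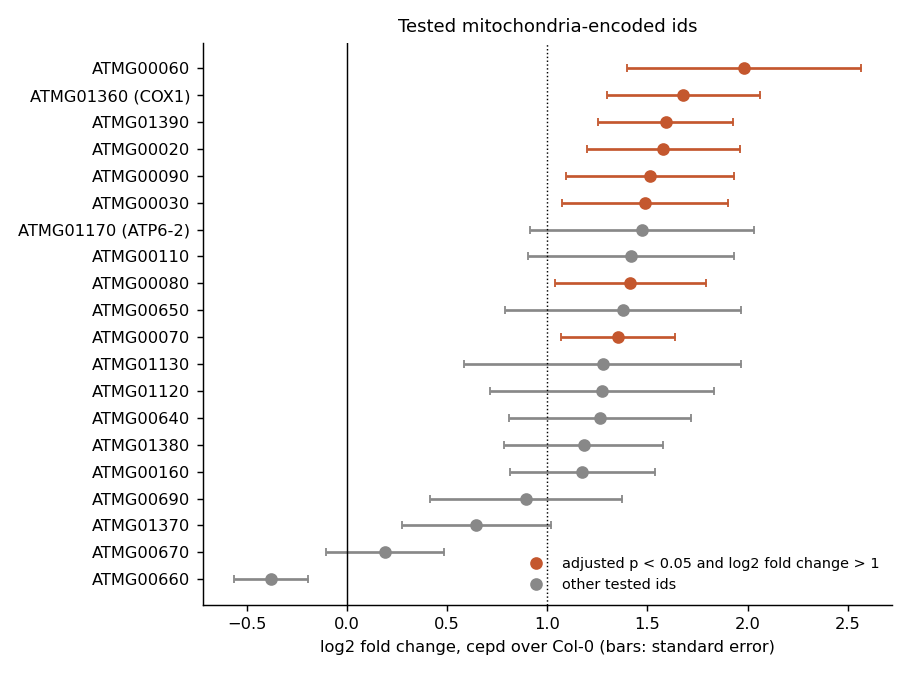
Points are the log2 fold changes of cepd over Col-0 for the 20 tested members, with bars of 1 standard error from edgeR; orange marks the 8 called members and the dotted line a log2 fold change of 1. The values run from -0.38 (ATMG00660) to 1.98 (ATMG00060), and 19 of the 20 lie above 0.

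Among the 132 untested members the counts were too few for a test. They summed to 18, 30 and 45 counts in Col-0 and to 113, 103, 65 and 43 counts in cepd, so that the groups overlapped in replicate 4 of each genotype. ATMG00510 and ATMG00513, named after their values were seen because they had the most counts, had 3, 3 and 9 and 1, 1 and 4 counts in Col-0 and 16, 20, 9 and 4 and 21, 19, 7 and 9 counts in cepd. NADH dehydrogenase 2B (ATMG01320), a subunit of complex I, had 0 counts in each Col-0 library and 5, 3, 4 and 2 in cepd. A count of 0 still allows up to 3 counts, or 0.0780 to 0.0804 CPM before scaling in the Col-0 libraries, so no fold is given. Of the 41 untested members with a count, 13 were counted only in cepd and 0 only in Col-0, against 19.6% and 12.6% of all untested identifiers with a count; cepd has 1 library more.

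The nuclear genes whose products work beside the mitochondrial ones gave a different picture. Of 60 such genes in 7 lists, 57 were tested with edgeR. At an adjusted p below 0.05, 1 was higher and 6 were lower in cepd (9.64% of all genes were higher and 8.3% lower at this threshold). With edgeR none of these differed by a log2 fold change above 1 in size, and the median log2 fold change of the 57 was -0.17. With the replicate block the counts were 3 higher and 24 lower (13.9% and 13.2% of all genes), the latter made up of 4 in complex I, 9 in complex III and cytochrome c, 3 in complex IV, 6 in the ATP synthase, 1 alternative oxidase and 1 in RNA handling; without Col-0 replicate 3, or without cepd replicate 1 or 2, 0 were lower. Of 13 complex I genes, 1 was lower, EMB1467 (log2 fold change -0.20 ± 0.06 SE, adjusted p 0.0456). Of 11 genes for complex III and cytochrome c, 4 were lower: MPPBETA (-0.27 ± 0.06), AT1G51980 (-0.27 ± 0.07), the iron-sulfur subunit gene AT5G13430 (-0.33 ± 0.10) and CYTC-2 (-0.62 ± 0.18), which encodes the carrier of electrons from complex III to complex IV. All 8 complex IV genes missed the threshold with edgeR and limma-voom (3 were lower at an unadjusted p below 0.05). With DESeq2 2 were lower, and 3 with the replicate block. Their median was -0.20, beside the 1.68 of the mitochondria-encoded COX1 of the same complex. Of the other mitochondrial identifiers listed for complex IV, ATMG00160 had a log2 fold change of 1.18 and was not called (edgeR adjusted p 0.0513). ATMG00730 was at 0 in all libraries. Of 9 ATP synthase genes, AT5G47030 was lower (-0.27 ± 0.07, adjusted p 0.0315).

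Few genes for the handling of mitochondrial RNA and DNA passed the threshold. Of 11 nuclear genes for mitochondrial transcription, RNA processing and RNA decay, 1 was higher in cepd, against 9.64% of all genes. It was EMB2730 (AT5G02250), a ribonuclease II/R family gene, at 15.4 CPM in Col-0 against 19.8 CPM in cepd (log2 fold change 0.36 ± 0.10 SE, edgeR adjusted p 0.0398). With the replicate block 2 of the 11 were higher and 1 lower, against 13.9% and 13.2% of all genes. All 3 genes for the maintenance of mitochondrial DNA missed the threshold, with log2 fold changes of 0.05 to 0.22. With the replicate block 1 of them was higher (13.9% of all genes). Of 5 alternative oxidase genes, which encode a bypass of complexes III and IV, 2 were tested with edgeR. DESeq2 gave a fold change for all 5. With it 2 were lower at an adjusted p below 0.05, 1 of them by a log2 fold change below -1. AOX1A had 82.0, 169 and 169 CPM in Col-0 against 66.4, 86.8, 93.0 and 88.4 CPM in cepd, a log2 fold change of -0.74 ± 0.24 (SE) with an adjusted p of 0.0653. With the replicate block its adjusted p was 0.0240 (log2 fold change -0.71 ± 0.14). For AOX1A, Col-0 replicate 1 stood with the cepd libraries, apart from Col-0 replicates 3 and 4.

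**Figure D5:**
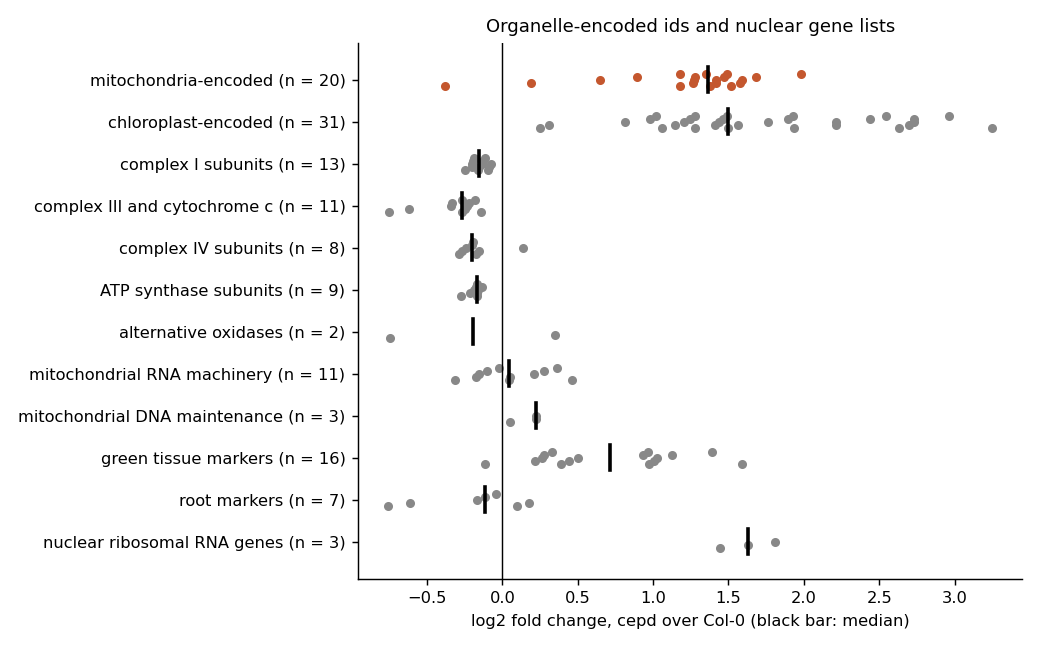
Each point is the log2 fold change of cepd over Col-0 of 1 tested gene, by list, with a black bar at the list's median; mitochondria-encoded identifiers are orange. Mitochondria-encoded and chloroplast-encoded identifiers have medians of 1.36 and 1.50, and the lists of nuclear-encoded respiratory subunits have medians between -0.27 and -0.15.

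The chloroplast identifiers were the most similar other set. Of 133, 31 were tested and 18 were called higher by edgeR (1.93% of all genes), or 19 with the replicate block (1.85%). All 31 had a log2 fold change above 0 (0.25 to 3.25, median 1.50). The filter can admit identifiers through their cepd libraries, so these counts describe the tested ones only. Both organelles were compared in the same libraries and so share their controls. For cepd replicates 3 and 4 alone, the calls were 5 of 24 tested for the chloroplast and 0 of 18 for the mitochondrion (1.19% of all genes).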

How the data were processed

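RNA of 7 root libraries was sequenced, and the values deposited by the authors are raw counts of reads per gene, without normalization. According to the submitters' processing notes the tools were CASAVA 1.8.2, STAR 2.5.2b-2, HTSeq 0.9.1 and DESeq2 2.11.40.6, with the TAIR10 genome; the treatment of reads with several matches and of strand is not given in the sources used here. The 152 ATMG identifiers and the gene lists were chosen with earlier results of these data known.

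All genes were tested together with edgeR 4.0.16 under R 4.3.3 (filterByExpr, TMM scaling, robust quasi-likelihood F test, Benjamini-Hochberg over 20600 genes). A call needed an adjusted p below 0.05 and an absolute log2 fold change above 1. CPM values are TMM-scaled. Alternatives were DESeq2 1.42.0, limma-voom (limma 3.58.1), other scalings and filters, the replicate block, leaving out each library and, added after the data were seen, cepd replicates 3 and 4 only. The test was checked on simulated counts.

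The labels give replicate numbers only and do not state that a number marks the same experiment in both genotypes. Deviations from the genotype means correlated between same-numbered libraries (r = 0.44, 0.19 and 0.27 for replicates 1, 3 and 4, across genes, which are not independent replicates). Of the other pairs, Col-0 3 with cepd 4 (0.19), Col-0 1 with cepd 2 (0.14) and Col-0 4 with cepd 3 (0.14) were also above 0.1. The numbers were taken to pair the libraries, which these values do not settle. Blocked counts of calls are given beside those they change.

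Members named singly are the called ones, the 8 with the highest mean CPM, the tested ones on identifier lists of respiratory, ATP synthase and ribosomal RNA genes, and the 3 lowest in log2 fold change; from each nuclear list at most 4 with the smallest adjusted p. ATMG00510, ATMG00513 and ATMG01320, which were not tested, were added after their values were seen. Sequence windows were compared exactly, on both strands, in RefSeq's TAIR10.1, whose nuclear chromosomes are those of TAIR10 and whose mitochondrial sequence is not; no mitochondrial coordinates are therefore given.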

Additional observations from a re-analysis of the deposited data

Results flagged for a closer look

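In the library of cepd replicate 1 the 2 most counted identifiers were balanced differently from the other cepd libraries. ATMG00020 made up 58.0% of its mitochondrial counts (53.1 to 53.3% in the other 3) and ATMG01390 35.3% (40.6 to 40.7%), so that their ratio was 1.64 (1.30 to 1.31). Each of these was far from the other values of its group by Dixon's criterion, and they are 3 views of 1 shift, among 33 values screened; chance flags about 1 in 20 groups. The Col-0 libraries had ratios of 1.35, 1.39 and 1.51.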

How the results depend on the processing

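The number of members called higher in cepd was 8 in the test reported, 12 with DESeq2, 5 with limma-voom, 5 with the replicate block, 0 with cepd replicates 3 and 4 only and 2 to 11 when 1 library was left out; with other scalings or filters it was 6 to 8, but without a filter beyond 1 count only 4 of the reported 8 were among the 7 called. No alternative called a member lower. The 18 chloroplast calls became 5 with a filter at 1 CPM, 5 with cepd replicates 3 and 4 only and 6 to 22 when 1 library was left out. In the nuclear lists, 1 gene higher became 2 with DESeq2, 3 with the block, 0 with cepd replicates 3 and 4 only and 0 to 3 with 1 library left out, and 6 genes lower became 16, 24, 0 and 0 to 19. The difference in mitochondrial share was 0.0693 percentage points, and 0.0537 to 0.0861 with 1 library left out. The log2 fold change of ATMG00670 ran from -0.10 (without Col-0 replicate 1, reversed) to 0.45 with 1 library left out. The cause of these changes was not tested. For the 8 called members the log2 fold change stayed above 0 in every alternative run, 0.66 to 2.26. Scaling moved the median of all genes by less than 0.1 on the log2 scale. Below the most counted members the depth limits precision: the 4 called members of lowest abundance rest on 12 to 34 counts per Col-0 library.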
